A study of Mus musculus with 6 samples.

Results

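Ptpro, Smim10l1, Gm14329 and Gm44131 are 4 of the 53700 genes listed in the count tables of these testis libraries, and of 2951 on chromosome 6. They were chosen because their counts were higher in the wild-type libraries WT 2 and WT 3 than in WT 1 and in all 3 conditional knockout (cKO) libraries. The choice rested on sense reads for Ptpro and on antisense (opposite-strand) reads for the other 3. Those values are therefore a description and carry no test below. Whole testes were taken at postnatal day 45 from 3 mice labelled MSL3 WT and 3 labelled MSL3 cKO, and total RNA was sequenced as single-end reads of 75 bp. All 6 mice carry the strain label Msl3em1Forni/C57BL/6J, and the cKO mice are described as floxed for Msl3, which encodes a chromodomain protein of the male-specific lethal complex. A strain label does not give the genotype of a single mouse, and gene counts do not show whether WT 2 and WT 3 carry another genetic background on distal chromosome 6 than the other 4 mice. For every gap between these libraries below, a difference in background was not tested. The recombinase line and the kinship of the mice are not given in the sources used here, and each library is labelled a biological replicate. In whole tissue, fewer cells of a type and less RNA per cell cannot be told apart.

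Ptpro encodes a receptor-type protein tyrosine phosphatase, a membrane protein that removes phosphate from tyrosines. It is best known from the podocytes of the kidney, where it is called GLEPP1, and from neurons, and a truncated form occurs in macrophages. Smim10l1 encodes a small integral membrane protein. Gm14329 is annotated as a long intergenic noncoding RNA and Gm44131 as a processed pseudogene, an inserted copy of a spliced messenger RNA. The strand matters because a read opposite a gene, if its strand is marked correctly, does not come from that gene's own transcript. Such reads come from an overlapping transcript on the other strand or from imperfect strand marking.

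The 4 genes lie within 4.36 Mb of distal chromosome 6, all on the plus strand (GENCODE M21 coordinates on mm10, the build in the submitters' processing notes). Smim10l1 spans chr6:133104909-133110899, Gm14329 spans chr6:135732870-135744311, Gm44131 spans chr6:136488319-136488712 and Ptpro spans chr6:137252319-137463233. A total of 95 annotated genes lie in the stretch from the first to the last, so the 4 are not adjacent. Gm14329 lies inside Grin2b, a minus-strand gene for the GluN2B subunit of the NMDA glutamate receptor. All 143 bases of its exon 1 (chr6:135732870-135733012) are, in reverse complement, coding sequence of Grin2b. The first 200 bases of the Gm14329 transcript are shown because they decide what an opposite-strand read means there. Capitals mark the part shared with Grin2b, and lower case the start of the second exon.
Gm14329: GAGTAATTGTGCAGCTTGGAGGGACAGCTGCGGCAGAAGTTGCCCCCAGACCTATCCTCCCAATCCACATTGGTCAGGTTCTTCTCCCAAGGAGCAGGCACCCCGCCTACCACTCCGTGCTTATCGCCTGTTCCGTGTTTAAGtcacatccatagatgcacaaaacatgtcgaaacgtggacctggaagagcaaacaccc

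The first 300 bases of Gm44131 (chr6:136488319-136488618, plus strand) are shown because the reads counted for it were almost all the complement of this sequence. No annotated gene in GENCODE M21 overlaps it, and the nearest gene with at least 10 reads in a library is another processed pseudogene, Gm6728, 1.13 kb away on the minus strand.
Gm44131: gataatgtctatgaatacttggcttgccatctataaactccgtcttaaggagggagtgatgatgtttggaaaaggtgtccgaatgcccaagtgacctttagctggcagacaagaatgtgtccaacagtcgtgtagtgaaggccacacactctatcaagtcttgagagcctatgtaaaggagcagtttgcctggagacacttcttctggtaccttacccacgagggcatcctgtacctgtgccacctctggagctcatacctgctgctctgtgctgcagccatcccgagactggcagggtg

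Promoters from RefSeq (GRCm38.p6, 250 bases before to 50 after the start) matched 3 of the 4 genes. Those of Ptpro (chr6:137252049-137252348) and Smim10l1 (chr6:133104989-133105288), both on the plus strand, are shown because these genes had the widest gaps between libraries. Capitals mark a motif match.
Ptpro: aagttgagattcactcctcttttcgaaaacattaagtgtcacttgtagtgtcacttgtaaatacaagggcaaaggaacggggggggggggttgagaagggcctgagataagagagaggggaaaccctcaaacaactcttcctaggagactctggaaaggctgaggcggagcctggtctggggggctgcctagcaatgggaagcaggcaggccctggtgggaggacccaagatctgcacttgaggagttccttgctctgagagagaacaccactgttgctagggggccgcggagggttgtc
Smim10l1: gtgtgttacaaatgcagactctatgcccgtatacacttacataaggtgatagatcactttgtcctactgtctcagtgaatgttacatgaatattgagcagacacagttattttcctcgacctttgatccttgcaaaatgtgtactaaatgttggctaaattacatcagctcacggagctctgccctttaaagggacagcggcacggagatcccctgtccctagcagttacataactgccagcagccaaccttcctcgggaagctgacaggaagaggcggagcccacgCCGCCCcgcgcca

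Both strands were searched for 4 short promoter motifs. The TATA box was spelled TATAAA. For the CCAAT box its own letters were used. The GC box was spelled GGGCGG, and the cAMP response element TGACGTCA. None of the 4 occurred in the promoters of Ptpro and Gm14329. The Smim10l1 promoter held 1 GC box, on the minus strand, 37 bases after the RefSeq start. This window (chr6:133104989-133105288) lies wholly inside the GENCODE span of Smim10l1 (chr6:133104909-133110899). It is therefore not upstream of the gene as GENCODE places it. Of 32851 promoters of this length, 13.6% held the TATA box, 37.4% the CCAAT box, 35.7% the GC box and 1.79% the cAMP response element. The 3 promoters thus shared no motif of this set. Their GC content was 54.7% for Ptpro, 49.0% for Smim10l1 and 59.0% for Gm14329, against a median of 52.7%.

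Of the chromosome 6 genes with enough gene-strand reads to be tested, Ptpro had the widest gap between the libraries. It had 57, 624 and 620 reads in WT 1, 2 and 3 and 90, 66 and 59 in cKO 1, 2 and 3. On the scale of counts per 1000000 reads (CPM, with library sizes scaled by trimmed mean of M values, TMM) these levels were 0.970, 9.62 and 9.97 in WT and 1.23, 1.18 and 1.01 in cKO. WT 1 had the lowest level of all 6 libraries, so the genotype groups overlapped. The WT mean was 6.85 ± 5.10 CPM (SD, n = 3) and the cKO mean 1.14 ± 0.117 CPM (SD, n = 3). The lower of WT 2 and WT 3 was 7.80-fold above the highest of the other 4 libraries, whereas WT 3 was 1.04-fold WT 2 and the cKO libraries lay within 1.22-fold of each other. Opposite-strand reads of Ptpro numbered 0, 2 and 1 in WT and 0 in each cKO library, too few to be tested. An opposite-strand count of 0 allows up to 3 reads, and all but 3 of the reads of Ptpro were thus on its own strand. Of the 8 annotated Ptpro transcripts, 4 are protein-coding, with lengths of 2667, 2767, 5049 and 5096 bases, and gene counts do not tell them apart.

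Smim10l1 showed a wide gap in the reads opposite to it and none of that size in its own. These numbered 20, 269 and 265 in WT 1, 2 and 3 and 18, 18 and 14 in cKO 1, 2 and 3. The levels were 0.340, 4.15 and 4.26 CPM in WT and 0.247, 0.322 and 0.240 CPM in cKO. The levels in WT 2 and WT 3 were at least 12.2-fold above the other libraries, and WT 1 again lay beside the cKO libraries. Reads on the strand of Smim10l1, which the choice did not use, numbered 802, 924 and 869 in WT and 898, 679 and 784 in cKO. That is 14.0 ± 0.299 CPM (SD, n = 3) in WT and 12.6 ± 0.700 CPM (SD, n = 3) in cKO. The groups did not overlap, as in 18.9% of all tested genes, but the log2 difference of -0.15 (SE 0.079) had an edgeR quasi-likelihood adjusted p of 0.432. The sense reads thus ranged from 12.1 to 14.2 CPM over the libraries that differed 12.2-fold or more in antisense reads.

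The share of opposite reads among the strand-assigned reads of Smim10l1 was 2.43% in WT 1 (exact Clopper-Pearson 95% interval 1.49% to 3.73%). It was 22.5% in WT 2 (20.2% to 25.0%) and 23.4% in WT 3 (20.9% to 25.9%). In the cKO libraries it lay between 1.75% and 2.58%. These intervals cover counting error only. Over all genes the gene strand held 96.0% to 96.2% of the strand-assigned reads, so the share was below the overall level of opposite reads in 4 libraries and far above it in WT 2 and WT 3. Of the 1193 strand-assigned reads in WT 2, 1 was missing from the unstranded count and in every other library 0 were. A read that falls on exons of 2 counted genes drops out of that count, so at most 1 did. The only overlapping annotated gene, Gm45769, lies on the same strand as Smim10l1 and had 0 opposite-strand reads in every library.

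**Figure D1:**
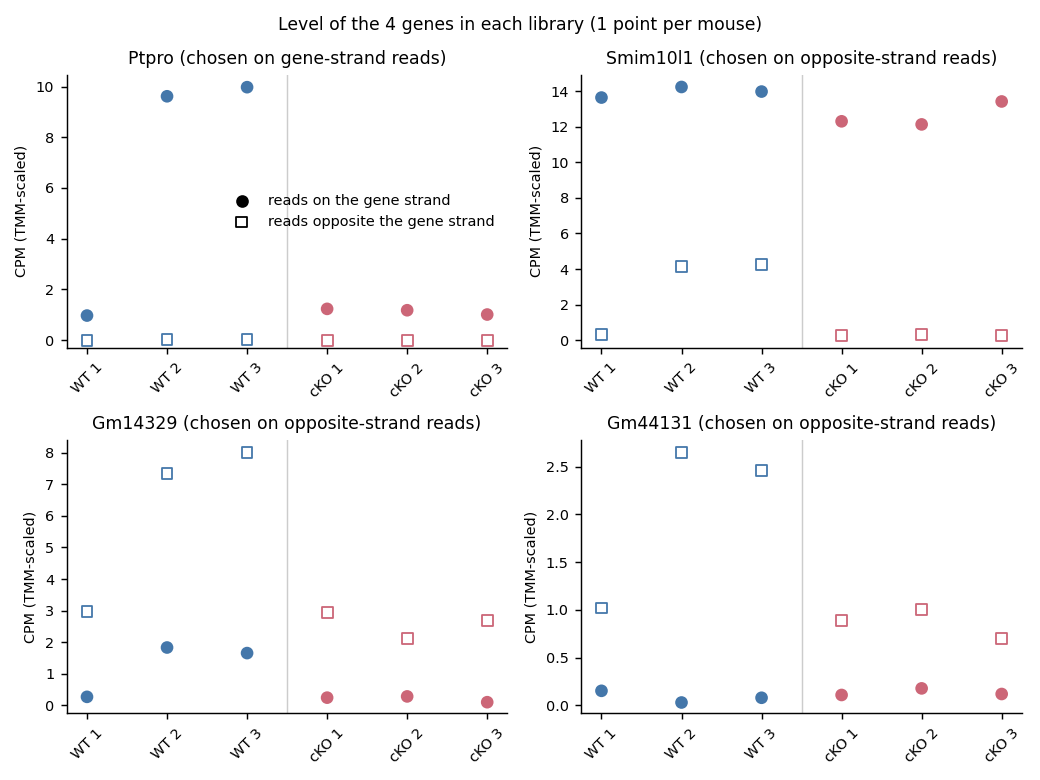
Level of each of the 4 genes in each of the 6 libraries, in CPM with TMM-scaled library sizes; filled circles are reads on the gene strand, open squares reads opposite to it, blue WT and red cKO. WT 2 and WT 3 stand apart in Ptpro on the gene strand (9.62 and 9.97 CPM), in Smim10l1 and Gm44131 on the opposite strand and in Gm14329 on both strands, while WT 1 lies with the cKO libraries.

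**Figure D2:**
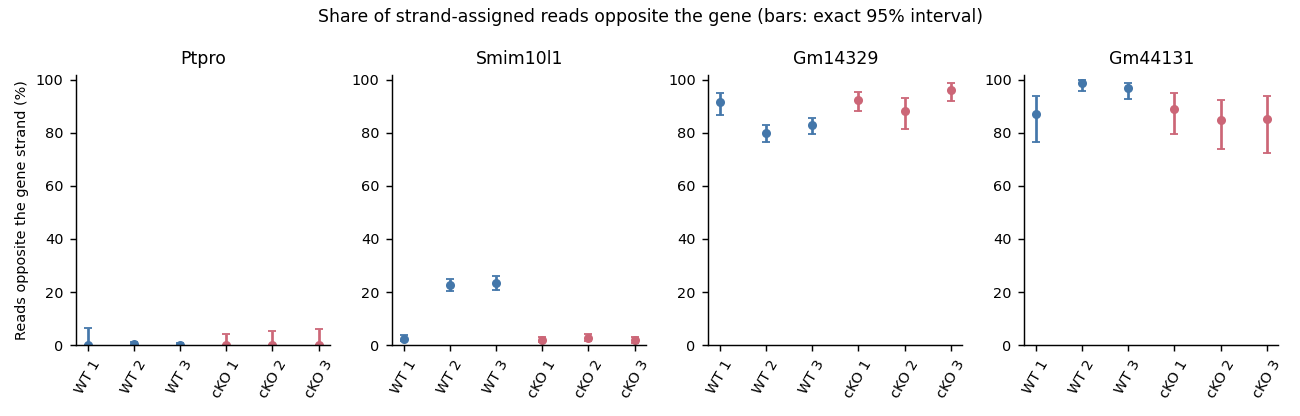
Share of strand-assigned reads opposite the gene, in percent, for each library, with exact 95% binomial intervals. The Smim10l1 share is 22.5% and 23.4% in WT 2 and WT 3 and at most 2.58% elsewhere, whereas Ptpro stays below 0.320% in every library.

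Gm14329 was read mostly from the strand of Grin2b. Opposite-strand reads numbered 175, 476 and 498 in WT and 215, 119 and 157 in cKO. The levels were 2.98, 7.34 and 8.01 CPM in WT and 2.95, 2.13 and 2.69 CPM in cKO, so WT 2 and WT 3 were at least 2.46-fold above the other 4. In the unstranded counts only 9, 78 and 67 reads remained in WT and 9, 5 and 1 in cKO, because a read that overlaps exons of 2 genes is not assigned there. Between 130 and 534 reads per library were lost in that way, most of the reads counted for the gene.

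Reads on the strand of Gm14329 itself, independent of the choice, gave a gap as well. They numbered 16, 119 and 103 in WT and 18, 16 and 6 in cKO. This is 1.25 ± 0.855 CPM (SD, n = 3) against 0.212 ± 0.0965 CPM (SD, n = 3). Again WT 2 and WT 3 were high, at least 5.80-fold above the other 4 libraries, with WT 1 within the cKO range. The log2 difference of cKO against WT was -2.56 (SE 0.58), with an edgeR adjusted p of 0.276. Without WT 1 it was -3.02, with an edgeR adjusted p of 3.25e-04, in a fit that called 0.518% of all genes. That fit sets WT 2 and WT 3 against cKO, the split used in the choice, so it is no independent test. With all 6 libraries the gene passed in edgeR with a replicate block (adjusted p 0.0344) and without a filter on low counts (1.3e-19). The call thus moved with the settings. Without WT 2 and WT 3 the log2 difference was -0.36, with 1 WT library left.

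Gm44131 had 60, 172 and 153 opposite-strand reads in WT and 65, 56 and 41 in cKO. The levels were 1.02, 2.65 and 2.46 CPM in WT and 0.891, 1.00 and 0.702 CPM in cKO. These 2 libraries, WT 2 and WT 3, were at least 2.41-fold above the others, the smallest gap of the 4 genes. Reads on its own strand numbered 9, 2 and 5 in WT and 8, 10 and 7 in cKO, too few to be tested, and were lowest in WT 2 and WT 3. Between 12 and 76 of its strand-assigned reads per library were missing from the unstranded count, although GENCODE M21 places no other gene there. The annotation behind the counts is not given in the sources used here and may hold a further gene at this site.

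Ambiguous origin of the reads was checked at the read length. Of the 75-base words of Ptpro and Gm44131, 0% occurred in the transcripts of any other gene on either strand. Of those of Smim10l1, 1.18% occurred in Gm45769, and of those of Gm14329, 13.3% occurred in Grin2b in reverse complement. Per kb of exon, the chosen reads reached 1.43 and 1.48 CPM per kb for Ptpro in WT 2 and WT 3, 1.35 and 1.39 for Smim10l1, 6.73 and 6.25 for Gm44131 and 12.4 and 13.6 for Gm14329. The exon length used is that of the annotated gene, whereas the length of the transcripts behind the opposite-strand reads is not known. These values therefore do not compare the level of those transcripts with that of Ptpro.

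The choice of these 4 genes was not exhaustive. In gene-strand counts Ptpro alone of the tested chromosome 6 genes reached its own gap of 7.80-fold, and the next was Gm14329 at 5.80-fold. In opposite-strand counts the smallest gap of the 3 chosen genes was 2.41-fold, and 1 further gene, Grin2b at 3.18-fold, exceeded it. The next below was Atf7ip at 1.92-fold. Having WT 2 and WT 3 above the other 4 libraries by any amount was common, at 15.5% of the genes tested on the gene strand and 10.3% of those tested opposite it. Both below occurred in 15.1% and 7.68%. A gap of at least 1.5-fold upward occurred in 0.192% and 0.229% of them, and downward in 0.0639% and 0.16%. On chromosome 6 the upward shares were 0.925% and 1.79% and the downward shares 0.555% and 0.671%. Off chromosome 6 they were 0.154% and 0.145% upward and 0.0384% and 0.133% downward. These shares describe the order by which the genes were picked and were not tested.

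Grin2b had the same 2 high libraries as Gm14329 and Gm44131. Its gene-strand reads numbered 1150, 2934 and 3315 in WT and 1455, 908 and 1014 in cKO, or 19.6, 45.2 and 53.3 CPM and 19.9, 16.2 and 17.4 CPM. WT 1 lay within the cKO range. Reads opposite Gm14329 that lie in shared exon 1 are also gene-strand reads of Grin2b, so these values partly overlap with those that chose Gm14329 and are given without a test. Reads opposite Grin2b, which the choice did not use but which can be the same reads as those on the strand of Gm14329, numbered 12, 71 and 53 in WT and 13, 15 and 7 in cKO. Their log2 difference was -1.94, with an edgeR adjusted p of 0.436, and of 3.22e-04 without WT 1, where 0.097% of all genes were called. Leaving out WT 1 keeps the split of libraries used in the choice, so the second value is no independent test. The opposite-strand reads of Gm14329 and of Gm44131 are on the strand of Grin2b, and Gm44131 lies 315 kb upstream of the annotated Grin2b start.

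The genes nearest to the 4 were then examined. These were the genes that overlap one of the 4 and the 3 nearest on each side with at least 10 reads in a library, 24 genes in all. Some of the nearest lay far off, as Ybx3 at 1716 kb from Smim10l1. Grin2b is left out of the gene-strand tests that follow, because it shares reads with the values that chose Gm14329. Of the other 23, 16 were tested on the gene strand, and 9 of the 24 on the opposite strand. None passed an edgeR adjusted p of 0.05 in cKO against WT on either strand, where 0.0183% and 0% of all genes did. At an unadjusted p under 0.05 there were 6 of 16 and 4 of 9, against 13.9% and 5.96% of all genes. DESeq2, which gave 11 of the 16 an adjusted p, called Dera and Eps8 on the gene strand and 0 on the opposite strand, against 1.39% and 0% of all genes. On the gene strand WT 2 and WT 3 were both above the other libraries in 7 of the 16, both below in 3 and neither in 6. On the opposite strand this was so in 4, 1 and 4 of the 9, so the neighbours did not share 1 direction. Over all genes tested on the 2 strands, both above occurred in 15.5% and 10.3% and both below in 15.1% and 7.68%. Without WT 1, edgeR called 4 of the 16, Dera, Gm44140, Pde6h and Eps8, and 0.518% of all genes. That fit has the split of libraries used in the choice, so its calls are no independent test. Without cKO 1 edgeR called 3, Dera, Eps8 and Atf7ip, and 2.82% of all genes.

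Beyond Ptpro, Dera encodes deoxyribose-phosphate aldolase and lay with the high genes. It had 9.59, 16.5 and 16.0 CPM in WT and 9.35, 7.95 and 8.77 CPM in cKO (log2 difference -0.69, SE 0.17, edgeR adjusted p 0.276). Levels in WT 2 and WT 3 were 1.67-fold or more above the other 4. Strap, which lies between Ptpro and Dera, had 272 to 296 CPM in every library and a log2 difference of -0.01. The high genes around Ptpro were thus interrupted by a gene at one level in all 6 mice.

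Eps8, an actin-binding protein gene that follows Ptpro at 14.0 kb on the other strand, went the opposite way. It had 24.0, 20.3 and 18.3 CPM in WT and 26.4, 26.9 and 32.0 CPM in cKO. These groups did not overlap, as in 18.9% of all tested genes, and the log2 difference was 0.45 (SE 0.11, edgeR adjusted p 0.276). Pde6h, the inhibitory subunit gene of cone phosphodiesterase before Ptpro, had 2.86, 1.62 and 1.30 CPM in WT and 3.15, 2.98 and 3.00 CPM in cKO. The low libraries there were WT 2 and WT 3, with a log2 difference of 0.67 (SE 0.23, edgeR adjusted p 0.299). Rerg, the nearest tested gene before Ptpro, had 6.50 to 8.06 CPM with overlapping groups. Of the tested neighbours before Ptpro, then, levels in WT 2 and WT 3 were lower in Pde6h and mixed in Rerg. After Ptpro they were lower in Eps8, mixed in Strap and higher in Dera.

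Near Gm44131, the coding gene Atf7ip, a cofactor of histone methylation, had 67.5, 69.3 and 66.4 CPM in WT and 66.8, 85.6 and 81.1 CPM in cKO, with overlapping groups. Its opposite-strand reads, by contrast, numbered 19, 49 and 55 in WT and 19, 19 and 23 in cKO. The noncoding Gm44140, annotated as starting from a bidirectional promoter, had 3.27, 5.18 and 5.52 CPM in WT and 3.66, 3.15 and 3.05 CPM in cKO. Thus WT 2 and WT 3 stood apart in minus-strand reads around Atf7ip but not in Atf7ip itself. The gap was 1.92-fold opposite Atf7ip and 1.41-fold in Gm44140, the latter under the 1.5-fold mark. Gm44140 lies within the span of Atf7ip, so the 2 counts may share reads and need not be separate signals.

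Of the neighbours of Smim10l1, Etv6 lay 925 kb away, Gm17088 1058 kb, Gm18688 1671 kb and Ybx3 1716 kb. Ybx3 encodes a Y-box protein that binds messenger RNA in male germ cells. Its levels were 1814 to 2078 CPM in WT and 1817 to 2186 CPM in cKO, with a log2 difference of 0.01. Etv6, an ETS-family repressor gene, had 8.68 to 9.75 CPM in all libraries. The noncoding Gm17088 had 0.204, 0.447 and 0.434 CPM in WT and 0.288, 0.214 and 0.257 CPM in cKO, again with WT 2 and WT 3 highest. Of these 3 neighbours, only Gm17088, annotated as antisense to other transcripts, had a gap of 1.5-fold or more. A further neighbour, the processed pseudogene Gm18688, had 1, 7 and 14 reads in WT and 1 in each cKO library. Its gap was 6.04-fold, on too few reads to pass the main filter. Gm45769, which overlaps Smim10l1 on the same strand, had 0.238, 0.354 and 0.322 CPM in WT. In cKO it had 0.192, 0.232 and 0.257 CPM, a gap of 1.25-fold with WT 2 and WT 3 highest.

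**Figure D3:**
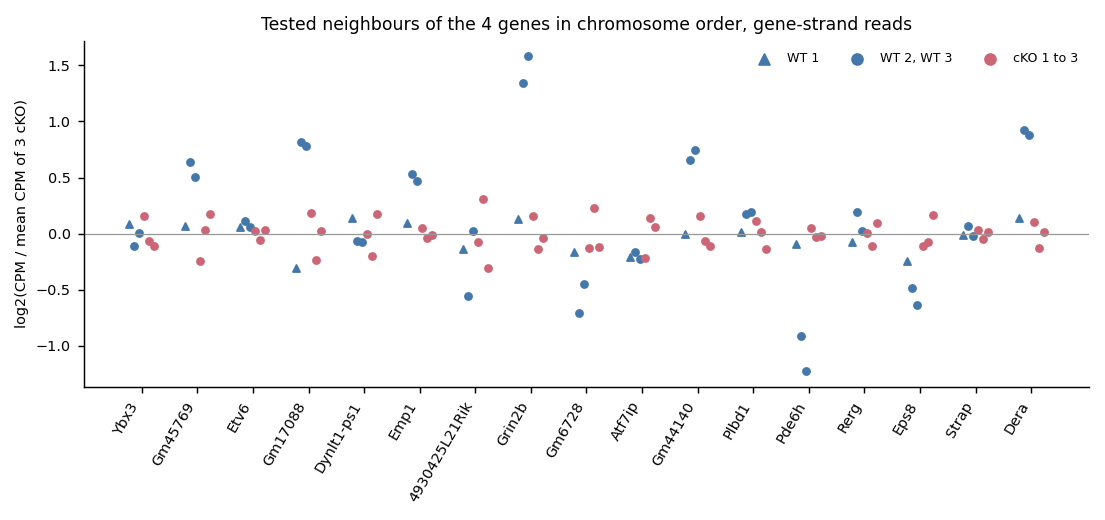
The 17 tested neighbours in chromosome order, as log2 of CPM over the mean of the 3 cKO libraries, gene-strand reads; blue triangles are WT 1, blue circles WT 2 and WT 3, red circles cKO. In Grin2b and Dera the blue circles lie above and in Pde6h and Eps8 below the rest, while Strap and Etv6 stay near 0 in all libraries.

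Along the whole of chromosome 6, gaps of at least 1.5-fold were found mostly in the distal part. On the gene strand 16 of 1081 tested genes had such a gap, 10 with WT 2 and WT 3 above and 6 below. Of these 16, 14 start at or beyond 110 Mb, and the other 2 are Pdk4 and Gimap5. On the opposite strand 11 of 447 genes had one, 8 above and 3 below, and all 11 start beyond 110 Mb. The window from 130 to 140 Mb held 8 of 57 genes on the gene strand (14.0%) and 6 of 27 on the opposite strand (22.2%), Ptpro, Smim10l1, Gm14329 and Gm44131 among them. In the next window, 140 to 150 Mb, 0 of 86 and 0 of 34 genes had a gap of that size.

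Further genes of that stretch, named after their values were seen, include Klrb1, which encodes a C-type lectin receptor of natural killer cells. It had 926, 456 and 494 reads in WT and 1158, 804 and 913 in cKO, the opposite direction to Ptpro. The olfactory receptor gene Olfr212 had 44, 145 and 119 reads in WT and 67, 57 and 45 in cKO. The lincRNA 4930404I20Rik, the last with such a gap, had 118, 281 and 235 reads in WT and 140, 127 and 114 in cKO. The stretch therefore held noncoding, lectin and olfactory receptor genes besides the 4 described.

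A stricter pattern of presence and absence was also found on this chromosome. In all 53700 genes, 2 had at least 10 gene-strand reads in WT 2 and in WT 3 and 0 in each of the other 4 libraries, and both lie on chromosome 6. Gm19757 (chr6:105481266-105492668), a lincRNA, had 85 reads in WT 2 and 89 in WT 3. Klra5 (chr6:129898996-129917650), a natural killer cell receptor of the Ly49 family, had 25 and 37. Taking a floor of 3 reads per library for the zeros, Gm19757 was at least 24.4-fold and Klra5 at least 7.19-fold higher in WT 2. In no gene was the reverse seen, with at least 10 reads in each of the other 4 libraries and 0 in both WT 2 and WT 3. Both genes had reads in too few libraries to be tested.

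**Figure D4:**
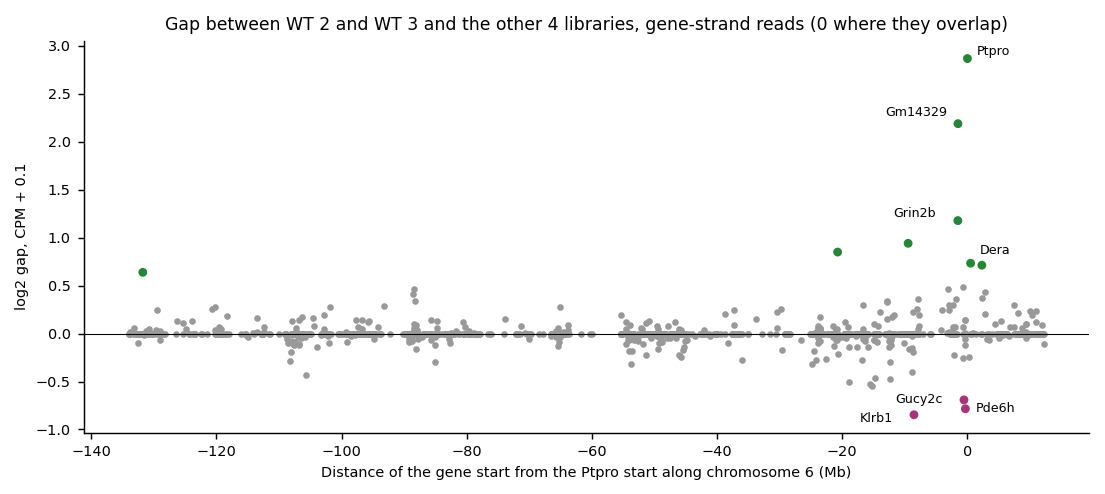
Each of the 1081 tested chromosome 6 genes by the distance of its start from the Ptpro start (Mb) and the log2 gap, on CPM + 0.1, between WT 2 and WT 3 and the nearest of the other 4 libraries; 0 means that they overlap, green is at least 1.5-fold above and purple at least 1.5-fold below. The highest gap is 2.87, for Ptpro, and on this scale 8 genes lie above and 3 below, most of them within 25 Mb of Ptpro.

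**Figure D5:**
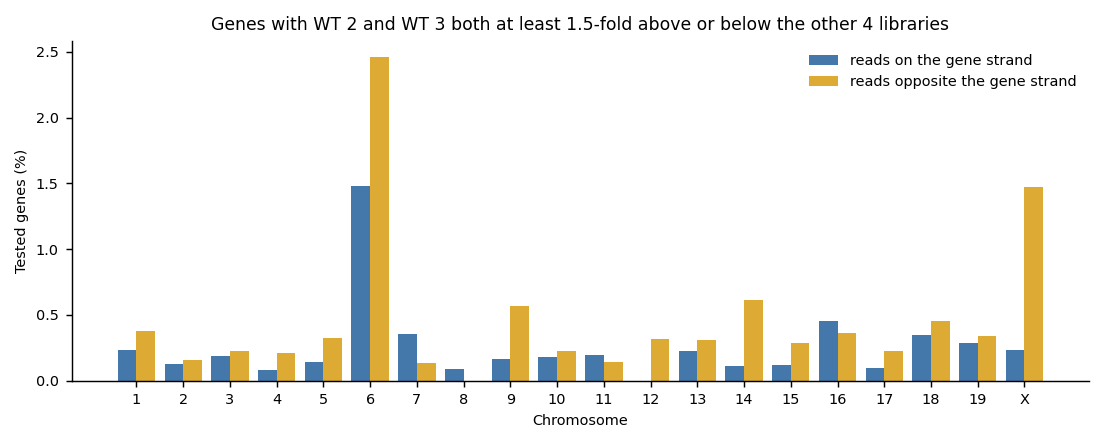
Percent of tested genes per chromosome with WT 2 and WT 3 both at least 1.5-fold above or below the other 4 libraries, for reads on the gene strand (blue) and opposite it (yellow). Chromosome 6 has 1.48% and 2.46%, the highest bars of either kind among the autosomes and X. Chromosome Y is not shown, and on the gene strand it has a higher share, 2.13%, or 2 of 94 tested genes.

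Genes whose levels followed those of the 4 across the 6 libraries were ranked by Pearson correlation of log2(CPM + 0.1), as a description over mice that share their depth and handling. Among 1202 gene-strand candidates, the 5 most like Ptpro were Rpl14-ps1 (r = 0.992), Rpsa-ps10 (0.992), Grin2b (0.982), 4930404I20Rik (0.979) and Olfr212 (0.978). The last 3 are on chromosome 6. Rpsa-ps10, a processed pseudogene on chromosome 3, had 11, 1143 and 1001 reads in WT and 11, 4 and 5 in cKO. Rpl14-ps1, on chromosome 7, had 57, 335 and 293 in WT and 75, 51 and 64 in cKO. Of the 75-base words of these pseudogenes, 75.2% and 68.7% occur in transcripts of other genes, so their counts are uncertain. The order of the libraries thus occurred off chromosome 6 as well.

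Among 1019 opposite-strand candidates, Gm5922, a lincRNA on chromosome 9, ranked first for Smim10l1 (r = 0.992) and for Gm14329 (0.982). Its opposite-strand reads numbered 15, 150 and 146 in WT and 11, 7 and 6 in cKO. For Gm44131 the first was Grin2b (0.993), followed by Pzp (0.988), Smim10l1 (0.985), Gm5922 (0.985) and Fam71a (0.979). Smim10l1 had Gm44131 (0.985), Grin2b (0.978), Pzp (0.970) and Gm14329 (0.968) in its next places. Gm14329 had Riok3 (0.974), Smim10l1 (0.968), Mfn1 (0.954) and Gm44131 (0.939). The 3 genes chosen on opposite-strand reads appeared in each other's lists, apart from Gm14329 in that of Gm44131. They were chosen for the same order of libraries in this column, so this likeness was set by the choice and is no finding.

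The other receptor tyrosine phosphatases were compared to see whether the family moved with Ptpro. Of 20 listed genes, 18 were tested and Ptprg was not analysed here. None passed an edgeR adjusted p of 0.05 in either direction, 6 had an unadjusted p under 0.05 (13.9% of all genes did), and DESeq2 called 0. Their median log2 difference of cKO against WT was 0.20, with 13 positive and 5 negative, against 0.0031 over all 21902 genes. The members of the R3 subfamily, to which Ptpro belongs, had log2 differences of 0.27 (Ptprb, edgeR adjusted p 0.312), -0.29 (Ptprh, 0.638), 0.20 (Ptprj, 0.440) and 0.07 (Ptprq, 0.803). The highest of the family, Ptprs and Ptprf, had 52.8 ± 3.68 and 39.7 ± 1.95 CPM (SD, n = 3) in WT and 57.7 ± 3.32 and 45.8 ± 2.39 CPM (SD, n = 3) in cKO. Both WT 2 and WT 3 were the lowest libraries in the summed level of the family, at 230 and 229 CPM against 238 to 275 CPM. This is the reverse of their place in Ptpro, but the sum is weighted to the highest members. Of the 18 tested, 2 had both above the other 4 libraries, as had 15.5% of all tested genes. These were Ptprh of the R3 subfamily, at 1.42 and 1.03 CPM against at most 0.891 CPM, and Ptprr, at 1.22 and 1.19 CPM against at most 0.946 CPM. Ptpre, Ptprf, Ptprk, Ptprm, Ptprn2, Ptprs and Ptprt had both below, an order 15.1% of all tested genes had, and the rest neither.

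Podocyte genes gave no called gene either. Of 7, 6 were tested, 0 passed the edgeR threshold, 2 had an unadjusted p under 0.05, again beside 13.9% of all genes, and DESeq2 called 0, with a median log2 difference of 0.17. Nphs1, for the slit diaphragm protein nephrin, had a mean of 0.0158 CPM and was not tested. Cd2ap and Synpo were the highest, at 38.4 ± 1.10 and 15.5 ± 1.39 CPM (SD, n = 3) in WT and 44.5 ± 3.96 and 17.0 ± 2.33 CPM (SD, n = 3) in cKO. Of 24 other small integral membrane protein genes, 20 were tested, 0 passed, 3 had an unadjusted p under 0.05, beside the same 13.9%, and DESeq2 called 0. Their median log2 difference was -0.11, with 5 positive and 15 negative. Smim24 and Smim13, the highest, had 720 ± 47.3 and 99.7 ± 0.917 CPM (SD, n = 3) in WT and 767 ± 38.6 and 104 ± 7.02 CPM (SD, n = 3) in cKO.

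Depth, targeted gene and cell type markers bear on all these values. Gene-strand reads numbered 56991431 to 73766444 per library, and WT 2 and WT 3 lay inside that range. Msl3 had 15.9 to 18.9 CPM in WT and 14.8 to 16.0 CPM in cKO (log2 difference -0.12, edgeR adjusted p 0.551), so the counts over the whole gene do not check the cKO label. Of 11 marker lists for germ and somatic cells, epididymis and blood, the summed level put WT 2 and WT 3 both highest in 1, the round spermatids, at 1610 and 1597 CPM against 1392 to 1567 CPM. They were both lowest in 3, the spermatogonia, spermatocytes and endothelium, and neither in 7. Such sums are weighted to the highest genes and do not stand for each marker. Of the 6 spermatocyte markers, 3 (Sycp3, Hormad1 and Spo11) had WT 2 and WT 3 both above the other 4 libraries, an order 15.5% of all tested genes had. Dmc1 and Piwil1, the highest of that list, had both below, as had 15.1% of all tested genes. Macrophage markers summed to 90.2 and 82.0 CPM in WT 2 and WT 3 and to 78.1 to 94.9 CPM elsewhere. Mrc1 alone held 46.3 to 60.5 CPM of that sum. Of the 6 macrophage markers, 2 had WT 2 and WT 3 both above the other 4 libraries, and the rest had neither order. These 2 were Adgre1, at 5.93 and 5.87 CPM against 4.34 to 4.97 CPM, and C1qa, at 10.7 and 10.2 CPM against 7.32 to 8.65 CPM. Epididymis markers summed to 3.77 to 5.62 CPM, with Lcn8 at 0 in every library. The part of these differences in the gaps of the 4 genes was not tested. No pair of libraries within a group agreed within sampling noise.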

How the data were processed

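Read counts per gene were deposited by the authors, 1 table per library for 3 WT and 3 cKO testes, in the layout of STAR's gene counts. STAR, HTSeq and DESeq2 and the build mm10 are named in the submitters' processing notes, with no version or role. The annotation release is not given in the sources used here. Each table holds unstranded counts and counts for either strand. Column 4 held most reads and was taken as the gene strand, column 3 as the opposite strand. Lines that name no gene held 14.8% to 16.8% of the reads and were left out. GENCODE M21 matched 52147 of 53700 identifiers, and the others held 0.18% of the reads.

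Both strand columns were tested with edgeR 4.0.16 (R 4.3.3): libraries were scaled by TMM, low genes were removed by filterByExpr at its default count of 10, cKO was compared with WT by the quasi-likelihood test, and p-values were adjusted by Benjamini-Hochberg over 21902 and 8735 genes with a threshold of 0.05. The opposite-strand fit used the library sizes and scaling of the gene strand. CPM were computed here from the deposited counts. The procedure was tested on simulated data. DESeq2 1.42.0, other scalings and filters, unstranded counts, a replicate block and each library left out were alternatives, and leaving out WT 2 and WT 3 together was added later. The genes and lists were chosen with earlier results of these data known. Named genes are the 4 members, overlapping genes, the 3 nearest genes on each side with at least 10 reads in a library, the 5 most correlated genes per member whose libraries range over at least 1 on the log2(CPM + 0.1) scale, the R3 phosphatases, Msl3 and the 2 highest genes of each list where none passed. Klrb1, Klra5, Gm19757 and other distal genes were named after their values were seen.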

Additional observations from a re-analysis of the deposited data

How the results depend on the processing

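The levels of the 4 genes moved by less than the spread within their group under the other scalings. Their order of libraries held under every scaling tried. In unstranded counts the log2 gap was 0.38 for Smim10l1, 2.82 for Gm14329 and 0.50 for Gm44131, against 3.61, 1.30 and 1.27 in the chosen column. Unstranded counts add gene-strand reads and drop reads that fall on 2 genes.

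The number of genes past the edgeR threshold, 4 on the gene strand and 0 on the opposite strand, moved with the settings. On the gene strand it was 757 without a filter on low counts, 193 with DESeq2 and 2 with unstranded counts, and it ran from 1 (without WT 3 or without cKO 2) to 628 (without cKO 1) when a library was left out. On the opposite strand it was 29 without a filter, 1 without WT 2 and WT 3, and from 0 to 29 with a library left out, the highest without cKO 1. At an unadjusted p under 0.05 the opposite-strand fit gave 521 genes, and DESeq2 called 0. Of the neighbours, Grin2b included, 6 were called on the gene strand and 1 on the opposite strand without a filter. DESeq2 called 2 on the gene strand. Grin2b on the gene strand shares reads with the values that chose Gm14329, so its call there is no test. Leaving it out, 5 were called on the gene strand without a filter, where 757 of 36605 genes were. With a library left out, the range on the gene strand was 0 to 5, or 0 to 4 without Grin2b. On the opposite strand it was 0 to 1, and both ranges were highest without WT 1, which leaves the split of libraries used in the choice. Without WT 2 and WT 3 together, an alternative that assumes the lone WT library to vary like the cKO libraries, 0 neighbours were called on either strand. The cause of these changes was not tested.

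The labels number the mice 1 to 3 in both groups. Deviations of WT and cKO libraries 1, 2 and 3 correlated at 0.346, 0.261 and -0.0457 over genes, and the third value gives no pairing. Adding a replicate block, 49 genes passed on the gene strand and 45 on the opposite strand, and of the neighbours 0 and 1. Gm14329 on the gene strand passed with the block (log2 difference -2.39, edgeR adjusted p 0.0344) and without a filter (-2.56 and 1.3e-19). Smim10l1 on the gene strand was not called in any of the 13 alternatives, its log2 difference running from -0.19 to -0.12 with a library left out.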
